A study of Mus musculus with 121 samples.

Results

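The genes described are 8 transcription factors of midbrain dopamine neurons: Nr4a2, Pitx3, Lmx1a, Lmx1b, En1, En2, Foxa1 and Foxa2. They were taken from a mouse RNA count table of 24412 genes by gene symbol, and each of the 8 symbols was found in the table. Midbrain dopamine neurons arise from the ventral midline of the developing midbrain, where forkhead and LIM-homeodomain factors specify their progenitors. Engrailed factors mark the region from early on, nuclear receptor and paired-like factors are switched on as the cells leave division, and several of these genes stay on in the adult, where they maintain dopamine synthesis, uptake and neuron survival. GDNF, the secreted factor altered in these mice, acts on the same neurons through its receptor Ret.

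RNA was sequenced from dissected prefrontal cortex (PFC), striatum (STR) and substantia nigra (SN) of adult male mice on a 129Ola/ICR/C57bl6 mixed background. The mice carried the conditional hypermorph allele of Gdnf, called cKU in the labels and cHyper in the study, which after Cre recombination is meant to raise Gdnf in the cells that already express it. WT mice were wt/wt littermates, HET mice wt/cKU and HOM mice cKU/cKU. In the Nestin-Cre model the mice carried a Nestin-Cre transgene, active across the central nervous system from mid-gestation, had no treatment and are labelled as 2 months old in every region, while the study's text gives a somewhat wider range of ages for STR and SN. In the AAV-Cre model every genotype, WT included, had AAV-Cre injected into the striatum of both sides at 3 to 5 months and was 5 to 7 months old at collection, 2 months after injection. Cre source, age and injection therefore change together between the models and cannot be told apart. The question asked of these genes is where they are expressed and whether their RNA differs between genotypes, regions or models.

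The table held 121 libraries in 18 groups, from 21 Nestin-Cre mice and 22 AAV-Cre mice. The Nestin-Cre groups had 8 WT, 6 HET and 4 HOM libraries in PFC, and 6 WT, 7 HET and 6 HOM libraries in each of STR and SN. The AAV-Cre groups had 7 WT, 7 HET and 8 HOM libraries in each of PFC and SN, and 7 of each genotype in STR. Total counts ran from 9869584 to 26750905 per library, with a median of 17885830. Levels are given in cpm, counts scaled to the total of their library, unless stated per kilobase of exon. The Nestin-Cre mouse M4575 is labelled WT for its PFC library and HOM for its STR and SN libraries, and each library was used as labelled.

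Gdnf was looked at first beside the genotype labels. The recombined allele ends its RNA at an inserted polyadenylation signal after the stop codon, in place of the native 3′UTR, so counts over the annotated exons can understate the RNA it makes. In Nestin-Cre STR, Gdnf measured 3.88 cpm at lowest, 5.98 at the median and 7.21 at highest in WT, 4.04, 5.67 and 9.05 in HET, and 5.79, 6.65 and 9.59 in HOM. In AAV-Cre STR it measured 5.45, 6.74 and 7.45 cpm in WT, 6.46, 7.37 and 9.43 in HET, and 7.71, 8.67 and 9.98 in HOM. The AAV-Cre HOM libraries all lay above the WT libraries, while the other groups overlapped WT. No Gdnf difference in STR was called after adjustment over all genes. The AAV-Cre HOM log2 fold change was 0.40 (SE 0.09, adjusted p 0.504) and the Nestin-Cre HOM log2 fold change 0.28 (adjusted p 0.784). In PFC and SN no library reached more than 1.67 cpm of Gdnf.

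Marker genes followed the labelled regions. The summed level of 6 dopamine neuron markers (Th, Slc6a3, Slc18a2, Ddc, Aldh1a1 and Chrna6) ran from 1867 to 4959 cpm in Nestin-Cre SN and from 2465 to 6338 cpm in AAV-Cre SN, with Slc6a3 the most abundant. The same markers summed to at most 121 cpm in any STR library and at most 90.2 cpm in any PFC library, so SN stood apart from both. The 5 cortical excitatory neuron markers used here ran from 1636 to 2124 cpm over the PFC libraries of both models. The 6 striatal projection neuron markers ran from 4122 to 8896 cpm over the STR libraries.

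Some libraries stood apart by their markers. The AAV-Cre HET SN library of M3676 had 21080 cpm of the 5 choroid plexus markers, 20040 cpm of it Ttr, against at most 228 cpm in the other AAV-Cre SN libraries. The AAV-Cre WT SN library of M3587 had 730 cpm of striatal projection neuron markers, against an SN median of 165 cpm in that model, and the lowest summed dopamine neuron level of its model, 2465 cpm. The Nestin-Cre HET SN library of M4566 had 1315 cpm of striatal projection neuron markers against an SN median of 141 cpm. In STR, 3 Nestin-Cre libraries (WT M4326 and M4609, HOM M4569) carried more than 200 cpm of cortical excitatory neuron markers. The genotype fits of AAV-Cre SN and Nestin-Cre STR, the WT region fits and the AAV-Cre SN correlations were also run without the libraries concerned, and the comparisons of effects between regions or models were not. Nor were the Nestin-Cre SN correlations run with M4566 left out for its markers.

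Marker lists of other cell types of the ventral midbrain and its surroundings were also summed in SN. A sum alone does not show that the cell type was present, since some lists were higher in STR. Median summed levels in the Nestin-Cre and AAV-Cre SN libraries were 67.5 and 56.2 cpm for serotonergic neuron markers, led by Tph2. Midbrain GABA neuron markers, led by Gad1, had medians of 1060 and 1022 cpm. The serotonergic list matters here because Lmx1b is also a serotonergic factor. Oligodendrocyte markers were the most abundant list, with medians of 22260 and 17320 cpm, and meninges and vessel markers had 162 and 115 cpm. Of the remaining SN lists, hypothalamic peptide neuron markers had medians of 22.4 and 6.26 cpm, red nucleus and motor nuclei markers 8.32 and 5.74 cpm, and cortical layer 6b and claustrum markers 95.2 and 91.5 cpm. Hippocampal neuron markers had 91.3 and 111 cpm, cerebellar granule neuron markers 23.2 and 21.7 cpm, ependymal markers 11.9 and 10.7 cpm, and immediate-early genes 145 and 133 cpm. In STR of the same models the medians were 1584 and 1701 cpm for midbrain GABA neuron markers and 278 and 273 cpm for hippocampal neuron markers. They were 99.5 and 106 cpm there for red nucleus and motor nuclei, and 138 and 106 cpm for cortical layer 6b and claustrum.

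By position in the mouse genome build mm10, Nr4a2 (Entrez 18227) lies at chr2:57107226-57124003 on the minus strand, with 9 exons. Pitx3 (Entrez 18742) lies at chr19:46135686-46148325 on the minus strand with 4 exons, of which 9 bases are shared with Elovl3 on the opposite strand. Lmx1a (Entrez 110648) lies at chr1:167689558-167848733 on the plus strand and Lmx1b (Entrez 16917) at chr2:33564536-33640511 on the minus strand, each with 8 exons. The engrailed genes have 2 exons each and lie on the plus strand, En1 (Entrez 13798) at chr1:120602487-120607991 and En2 (Entrez 13799) at chr5:28165696-28172166. Foxa1 (Entrez 15375) lies at chr12:57540632-57546121 with 2 exons and Foxa2 (Entrez 15376) at chr2:148042877-148046969 with 5 exons, both on the minus strand. The 8 genes thus lie on 5 chromosomes, with Nr4a2, Lmx1b and Foxa2 on chromosome 2 and Lmx1a and En1 on chromosome 1.

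Nr4a2 encodes the orphan nuclear receptor Nurr1, which drives the genes of dopamine synthesis and transport and is also made in parts of the cortex and hippocampal formation. In WT SN it measured 23.7, 36.0 and 55.0 cpm (lowest, median and highest of 6) in the Nestin-Cre model and 48.6, 68.3 and 82.6 cpm (of 7) in the AAV-Cre model. In WT PFC it measured 23.5, 28.6 and 39.6 cpm in Nestin-Cre and 22.5, 28.2 and 37.5 cpm in AAV-Cre mice. SN lay above PFC in every AAV-Cre WT library, and the regions overlapped in Nestin-Cre WT mice. In WT STR it measured 0.774, 7.96 and 53.5 cpm in Nestin-Cre and 0.851, 1.36 and 3.32 cpm in AAV-Cre mice. Nr4a2 was therefore low in every AAV-Cre WT STR library, while the Nestin-Cre STR libraries ranged from near the AAV-Cre floor to the level of SN.

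Pitx3 is a paired-like homeodomain factor that in the brain is made in midbrain dopamine neurons and is needed for those of the substantia nigra. In WT SN it measured 3.44, 4.17 and 6.91 cpm in Nestin-Cre and 4.88, 7.60 and 10.4 cpm in AAV-Cre mice. Outside SN all 18 Nestin-Cre PFC libraries together held 12 Pitx3 counts and all 19 STR libraries 15 counts, and the AAV-Cre libraries 10 counts in PFC and 22 in STR. The Nestin-Cre WT SN level was 176 times that of WT STR by pooled counts (95% counting interval 60.1 to 852). Such intervals, and the floors given for counts of 0, cover counting error only.

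Lmx1a and Lmx1b are LIM-homeodomain factors, the former a determinant of dopamine progenitors and the latter shared between dopamine and serotonergic neurons. In WT SN Lmx1a measured 4.64, 7.36 and 14.7 cpm in Nestin-Cre and 9.77, 12.8 and 20.4 cpm in AAV-Cre mice. Lmx1b in WT SN measured 1.43, 3.00 and 4.29 cpm in Nestin-Cre and 4.88, 6.43 and 8.55 cpm in AAV-Cre mice. The WT SN ranges of Lmx1b in the models did not overlap, as for 28.6% of all genes, and those of the other 7 members did. In PFC the Lmx1a counts came to 6 over 18 Nestin-Cre libraries, 13 of them at 0, and to 4 over 22 AAV-Cre libraries, 20 of them at 0. Against AAV-Cre WT PFC, where all 7 libraries were at 0, Lmx1a in SN was at least 486-fold higher, with the floor set at 3 counts over the group. Lmx1b outside SN came to 17 and 20 counts in Nestin-Cre and AAV-Cre PFC and to 7 and 17 counts in STR. The Nestin-Cre WT STR libraries held 1 Lmx1b count, which puts SN at 326 times STR with a counting interval from 58.6 to 12890.

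En1 and En2 are the engrailed homeodomain factors, which pattern the midbrain and hindbrain in the embryo and keep dopamine neurons alive in the adult. En1 in WT SN measured 21.5, 31.2 and 37.1 cpm in Nestin-Cre and 28.3, 44.3 and 56.6 cpm in AAV-Cre mice. En2 in WT SN measured 7.99, 9.47 and 12.8 cpm in Nestin-Cre and 10.8, 16.8 and 21.1 cpm in AAV-Cre mice. The paralogs differed outside SN. En1 was at 0 in 17 of 18 Nestin-Cre and 21 of 22 AAV-Cre PFC libraries, and SN was at least 1542-fold above the AAV-Cre WT PFC floor. En1 in STR came to 24 counts in all Nestin-Cre and 31 in all AAV-Cre libraries. En2 had a low level in WT STR, at 0.383, 0.794 and 2.85 cpm in Nestin-Cre and 0.908, 1.47 and 1.97 cpm in AAV-Cre mice, and a lower level in WT PFC, with medians of 0.316 and 0.596 cpm. En2 was thus the member besides Nr4a2 that was found in every WT library of every region.

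Foxa1 and Foxa2 are forkhead pioneer factors of the floor plate that act in dopamine progenitors and in mature dopamine neurons. Foxa1 in WT SN measured 13.1, 18.7 and 23.3 cpm in Nestin-Cre and 17.2, 26.0 and 32.1 cpm in AAV-Cre mice. Foxa2 in WT SN measured 3.91, 5.87 and 7.06 cpm in Nestin-Cre and 5.32, 9.08 and 10.7 cpm in AAV-Cre mice. Neither gene had a count in any of the 18 Nestin-Cre or 22 AAV-Cre PFC libraries. Foxa1 in WT SN was at least 961-fold above the PFC floor in Nestin-Cre and at least 894-fold above it in AAV-Cre mice. Foxa2 was at least 306-fold and at least 283-fold above the PFC floor in the same models. In STR Foxa2 had 0 counts in all 21 AAV-Cre libraries and 2 counts in the 19 Nestin-Cre libraries, none of them WT, which puts WT SN at least 344-fold and at least 225-fold above the STR floor. Foxa1 in STR came to 6 counts in each model, with 16 of 19 Nestin-Cre and 17 of 21 AAV-Cre libraries at 0. In WT mice its SN level was 2118 times that of STR in Nestin-Cre (counting interval 380 to 83680) and 1635 times in AAV-Cre mice (453 to 13500). Both AAV-Cre WT STR counts of Foxa1 were in M3585, a library high in choroid plexus markers, and the other 6 were at 0.

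**Figure D1:**
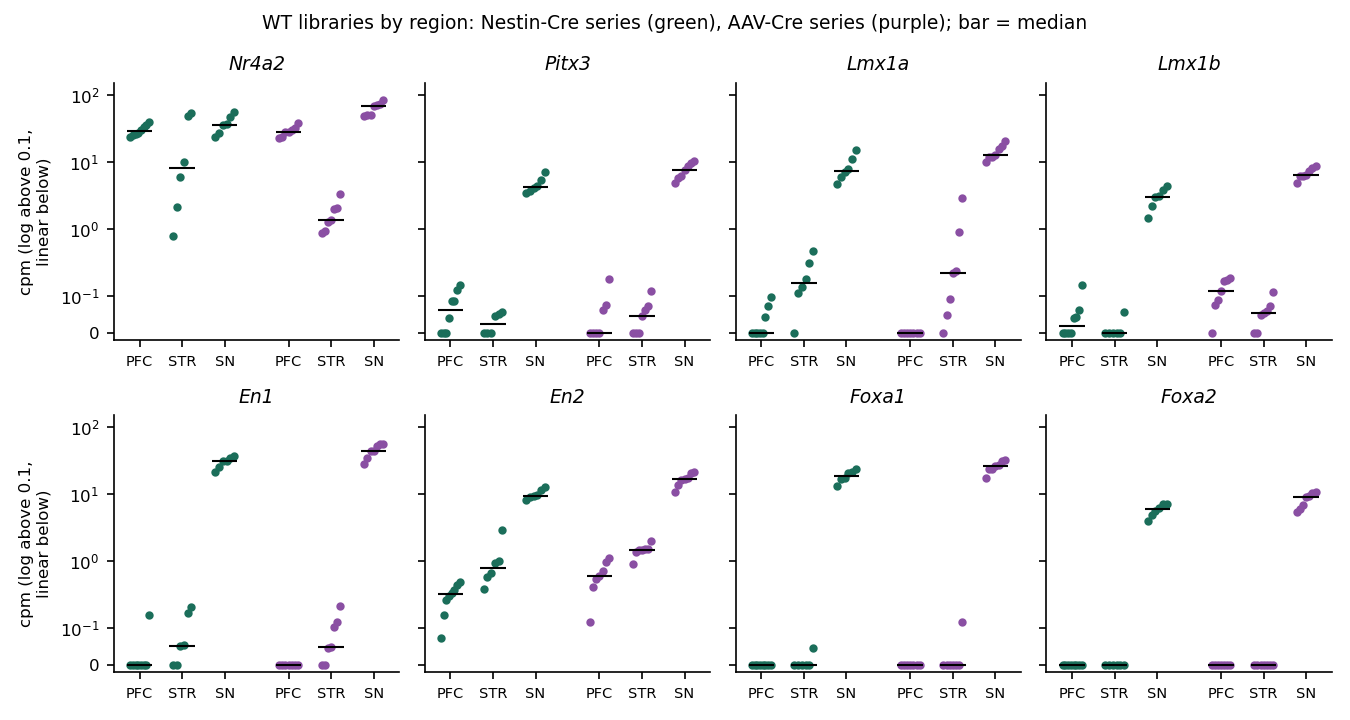
Level of each of the 8 genes in WT libraries (cpm, logarithmic above 0.1 and linear below) in PFC, STR and SN, with Nestin-Cre in green, AAV-Cre in purple, each point a library and each bar a median. Foxa1 and Foxa2 sit at 0 in every PFC library, while Nr4a2 in Nestin-Cre STR spreads from 0.774 to 53.5 cpm.

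WT SN medians were higher in the AAV-Cre than in the Nestin-Cre model for each of the 8 genes, and for 53.1% of all genes, a difference between models that was not tested. The AAV-Cre library with the lowest WT level of Nr4a2, Pitx3, Lmx1a, Lmx1b, En1, En2, Foxa1 and Foxa2 was in each case that of M3587, the SN library with raised striatal projection neuron markers. In whole tissue, fewer dopamine neurons and less RNA per neuron cannot be told apart.

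Levels were set in order per kilobase of exon, since the genes differ in length. In Nestin-Cre WT SN the median cpm per kb was 12.2 for En1, 10.8 for Nr4a2, 5.88 for Foxa1, 3.03 for Pitx3, 2.68 for En2, 2.48 for Foxa2, 2.46 for Lmx1b and 2.2 for Lmx1a. Each gene overlapped its neighbour in that order. In AAV-Cre WT SN the median cpm per kb was 20.4 for Nr4a2, 17.4 for En1, 8.16 for Foxa1, 5.51 for Pitx3, 5.28 for Lmx1b, 4.74 for En2, 3.83 for Foxa2 and 3.83 for Lmx1a. En1, at 11.1 to 22.2 cpm per kb, lay clear of Foxa1, at 5.40 to 10.1 cpm per kb, and the other neighbours overlapped. Nr4a2, En1 and Foxa1 held the top 3 places in both models. In PFC the order was led by Nr4a2, at a median of 8.53 cpm per kb in the Nestin-Cre model and 8.43 in the AAV-Cre model, well clear of En2 at 0.0893 and 0.169. In STR the medians were 2.38 cpm per kb for Nr4a2 and 0.224 for En2 in Nestin-Cre mice, and 0.407 and 0.415 in AAV-Cre mice, with overlapping ranges in both models.

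Region differences were tested in WT mice with the edgeR quasi-likelihood test over all genes, and a gene was called at an adjusted p under 0.1. In Nestin-Cre mice 7 genes (Nr4a2 apart), and in AAV-Cre mice 6 genes (Nr4a2 and En2 apart), entered the fit only because they passed the minimum level in SN. They therefore had to differ, and their number is given as a description only. In AAV-Cre mice 8 of 8 were higher in SN than in STR, a call made for 39.7% of all genes, and 0 were lower, a call made for 35.9%. In the same mice 8 of 8 were higher in SN than in PFC (37.7% of all genes) and 0 were lower (36.4%). In Nestin-Cre mice 7 of 8 were higher in SN than in STR (37.8% of all genes) and 0 lower (38.3%), and 7 of 8 higher in SN than in PFC (37.6%) and 0 lower (41.2%). Nr4a2 was the gene not called in either Nestin-Cre comparison. The regions come from the same mice, and with mouse as a block 8 of 8 were higher in SN than in STR in Nestin-Cre mice, Nr4a2 included. Without the AAV-Cre SN library of M3587 the AAV-Cre numbers were again 8 and 8. DESeq2 gave the same numbers in each of these comparisons, and every gene with an unadjusted p under 0.05 was higher in SN. The comparisons within a model share their WT libraries.

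The sizes of the region differences varied among the genes. Nr4a2 in AAV-Cre mice was 5.16 log2 units higher in SN than in STR (SE 0.22, adjusted p 3.23e-15) and 1.06 higher in SN than in PFC (SE 0.16, adjusted p 5.28e-06). In Nestin-Cre mice its SN to STR difference was 0.73 (SE 0.57, 95% interval -0.46 to 1.91, adjusted p 0.261) and its SN to PFC difference 0.14 (SE 0.53, adjusted p 0.818). With mouse as a block the Nestin-Cre SN to STR difference was 1.66 (adjusted p 0.0207), past the threshold. Without M3587 the AAV-Cre differences were 5.21 and 1.115 (adjusted p 4.13e-15 and 3.33e-06). The difference between models was not tested. The engrailed pair differed in size. En1 was 9.12 log2 units higher in SN than STR in AAV-Cre mice and 8.32 in Nestin-Cre mice, and En2 3.46 (SE 0.22, adjusted p 2.33e-12) and 3.07. Pitx3 was 7.29 and 6.99 log2 units higher in SN than STR, and Lmx1b 6.90 and 7.43. Lmx1a was 4.5 and 5.20 log2 units higher, and 6.81 in AAV-Cre mice without the STR libraries M3585 and M3588, high in choroid plexus markers. For the genes that entered the fit through SN these sizes are descriptions, and no p is given. Against PFC, Pitx3 was 7.28 log2 units higher in AAV-Cre and 5.98 in Nestin-Cre mice, Lmx1b 5.70 and 5.86, and En2 4.57 and 4.83.

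STR and PFC were compared in the same way, and the numbers called are given as a description beside the shares of all genes. In AAV-Cre WT mice 3 of 8 genes were higher in STR (33.8% of all genes) and 2 were lower (31.8%). The lower genes were Nr4a2, at a log2 fold change of -4.10 (SE 0.22, adjusted p 3.26e-13), and Lmx1b, at -1.20 (SE 0.55, adjusted p 0.0880). Lmx1b had only 6 counts over these STR libraries and 12 over the PFC libraries. The Lmx1b call was lost with DESeq2 (adjusted p 0.130), with mouse as a block (0.101) with no filter on low counts (0.108) and without the 2 STR libraries high in choroid plexus markers, M3585 and M3588 (0.191). The higher genes were En2, at 1.12 (SE 0.28, adjusted p 0.00157), and Lmx1a and En1, which had no count in any AAV-Cre WT PFC library and so have no fold change to give (adjusted p 0.00570 and 0.0436, and 0.0118 and 0.117 without M3585 and M3588). Over the AAV-Cre WT STR libraries Lmx1a had 74 counts and En1 only 9. In Nestin-Cre WT mice 2 of 8 genes were higher in STR (34.2% of all genes), En2 by 1.76 (SE 0.39, adjusted p 0.000495) and Lmx1a by 2.66 log2 units (SE 0.77, adjusted p 0.00474). The STR library of M4394 had 2.85 cpm of En2, against 0.383 to 1.01 cpm in the other Nestin-Cre WT STR libraries. This comparison was not run without it. In these mice the edgeR test called 0 genes lower in STR (34% of all genes), 0 had a lower value at an unadjusted p under 0.05, and DESeq2 called 0. Foxa2 had no WT count in either region and was not compared.

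Nr4a2 in STR varied with cortical markers. The 5 cortical excitatory neuron markers (Tbr1, Neurod6, Emx1, Slc17a7 and Cux2; Slc17a7 most often the most abundant, none at 0) summed in Nestin-Cre STR to 15.6, 88.2 and 287 cpm in WT, 21.4, 39.1 and 134.5 cpm in HET, and 22.3, 70.4 and 479 cpm in HOM. The Nestin-Cre library with the most Nr4a2 was HOM M4569, with 68.5 cpm of Nr4a2 beside 479 cpm of markers. WT M4609 had 53.5 cpm beside 285 cpm, and WT M4326 had 48.1 cpm beside 287 cpm. These 3 libraries stood far above the next, HET M4606 with 17.2 cpm of Nr4a2 and 134.5 cpm of markers. At the other end WT M4545 had 0.774 cpm of Nr4a2 and 15.6 cpm of markers. In AAV-Cre STR the markers summed to 30.5, 44.5 and 77.2 cpm in WT, 35.9, 59.7 and 79.85 cpm in HET, and 37.5, 54.8 and 166 cpm in HOM. The AAV-Cre libraries with the most Nr4a2 were HOM M3749 (6.41 cpm, markers 70.3), HOM M3567 (6.17 cpm, markers 87.0) and HET M3652 (4.95 cpm, markers 72.5).

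Across STR libraries the relation between Nr4a2 and the marker sum is given as a description with no p, since it was chosen after the values above were seen. With genotype means removed, r was 0.964 and rho 0.928 over 19 Nestin-Cre libraries, and r was 0.945 without the 2 farthest. Over 21 AAV-Cre libraries r was 0.708 and rho 0.852, and r was 0.761 without the 2 farthest. Without WT M4326 and M4609 the Nestin-Cre WT Nr4a2 level was 2.85 log2 units higher in SN than in STR and its log2 fold change from PFC to STR was -2.65. These are the WT STR libraries with the most Nr4a2, so leaving them out had to widen both differences, and no p is given. The 1 Lmx1b count of Nestin-Cre WT STR was in M4326, so Lmx1b has no fold change to give without these libraries. The part of cortical RNA in the Nr4a2 values of STR was not tested.

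**Figure D2:**
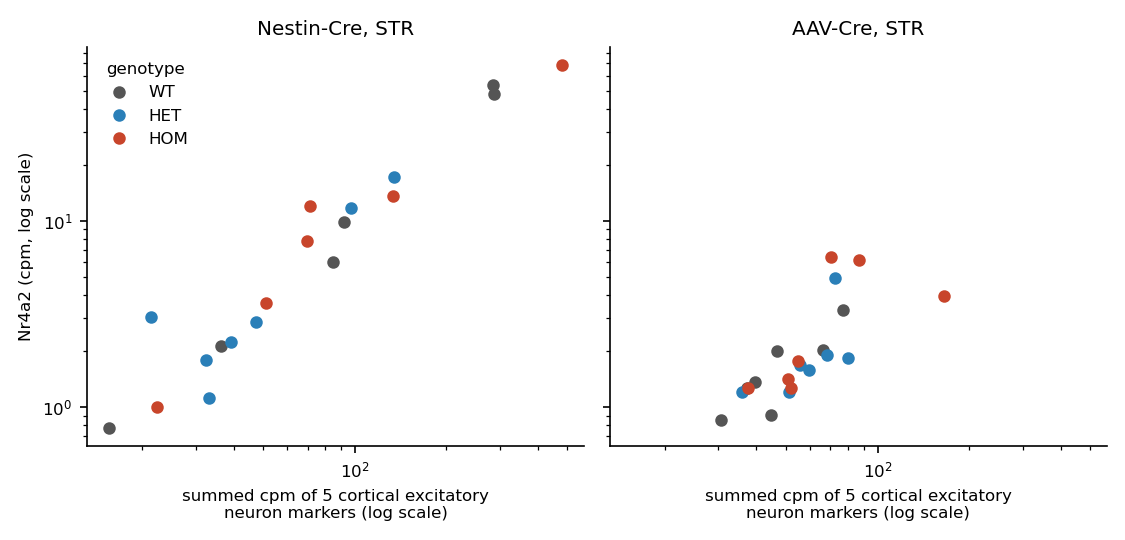
Nr4a2 (cpm) against the summed level of 5 cortical excitatory neuron markers (cpm) in each STR library, both axes logarithmic, Nestin-Cre and AAV-Cre in separate panels and coloured by genotype. The 3 Nestin-Cre libraries with more than 200 cpm of markers hold 48.1 to 68.5 cpm of Nr4a2.

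Lmx1a in STR was carried by a few libraries. In Nestin-Cre STR it measured 0, 0.156 and 0.467 cpm in WT, 0, 0.138 and 3.13 cpm in HET, and 0, 0 and 0.0532 cpm in HOM. In AAV-Cre STR it measured 0, 0.215 and 2.84 cpm in WT, 0, 0.164 and 1.87 cpm in HET, and 0, 0.0568 and 1.54 cpm in HOM. The high libraries occurred in every AAV-Cre genotype. They were also the libraries with the most choroid plexus RNA, measured as the sum of Ttr, Folr1, Kl, Clic6 and Kcne2, with Ttr the most abundant. The Nestin-Cre HET library of M4566, with 3.13 cpm of Lmx1a, had 18890 cpm of choroid plexus markers, 18400 cpm of it Ttr, against at most 287 cpm in the other Nestin-Cre STR libraries. In AAV-Cre STR, WT M3585 had 2.84 cpm of Lmx1a beside 8196 cpm of choroid plexus markers, HET M3610 1.87 beside 6909, HET M3750 1.71 beside 5204, HOM M3690 1.54 beside 6542, HOM M3607 1.32 beside 4936 and WT M3588 0.883 beside 5590. In each other AAV-Cre STR library Lmx1a was at most 0.235 cpm and the markers at most 308 cpm. The part of choroid plexus RNA in the Lmx1a level of STR was not tested.

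In Nestin-Cre SN the genotypes were compared gene by gene. Nr4a2 measured 34.0, 42.8 and 62.4 cpm in HET and 31.5, 36.9 and 69.4 cpm in HOM, against 23.7, 36.0 and 55.0 cpm in WT. Of the 7 HET libraries 2 exceeded every WT library, and of the 6 HOM libraries 1, M4580. The log2 fold change of Nr4a2 was 0.25 in HET (SE 0.21, 95% interval -0.18 to 0.68) and 0.13 in HOM (SE 0.21), the latter turning to -0.081 without M4580. Pitx3 measured 3.29, 5.78 and 8.52 cpm in HET and 3.80, 5.15 and 6.78 cpm in HOM, with log2 fold changes of 0.30 and 0.14. Both Pitx3 groups overlapped WT.

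Lmx1a had the largest log2 fold changes of the 8 genes in Nestin-Cre SN with all libraries in the fit. It measured 8.37, 12.3 and 16.6 cpm in HET and 5.85, 9.62 and 20.2 cpm in HOM, against 4.64, 7.36 and 14.7 cpm in WT. The HET group lay above the WT mean in 6 of 7 libraries and above every WT library in 2. The Lmx1a log2 fold change was 0.51 in HET (SE 0.28, 95% interval -0.09 to 1.10, unadjusted p 0.0893, adjusted p 0.518) and 0.33 in HOM (SE 0.29). When single libraries were left out it ran from 0.38 to 0.71 in HET and from 0.04 to 0.53 in HOM. Lmx1b measured 2.41, 3.47 and 4.86 cpm in HET and 1.84, 2.80 and 4.01 cpm in HOM, with log2 fold changes of 0.25 and -0.02, and overlapped WT throughout.

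The engrailed and forkhead genes of Nestin-Cre SN overlapped WT in both genotypes. En1 measured 21.2, 34.5 and 50.1 cpm in HET and 21.0, 28.3 and 40.8 cpm in HOM, with log2 fold changes of 0.22 and -0.02. En2 measured 7.84, 11.6 and 15.6 cpm in HET and 7.69, 11.3 and 15.9 cpm in HOM, with log2 fold changes of 0.30 (SE 0.17, unadjusted p 0.0999) and 0.16. HET libraries of both genes fell on either side of WT, with 3 above and 1 below every WT library. Foxa1 measured 14.5, 22.1 and 26.5 cpm in HET and 13.5, 17.1 and 29.6 cpm in HOM, with log2 fold changes of 0.18 and -0.0035. Foxa2 measured 5.61, 6.95 and 9.01 cpm in HET and 4.66, 6.65 and 11.7 cpm in HOM, with log2 fold changes of 0.31 and 0.27. Of the Foxa2 libraries, 3 of 7 HET and 3 of 6 HOM lay above every WT library.

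No gene passed the test in Nestin-Cre SN. All 8 were in the fit, and edgeR called 0 in HET (0% of all genes) and 0 in HOM (0%). The numbers at an unadjusted p under 0.05 were 0 and 0 (8.99% and 4.09% of all genes). DESeq2 (0.0197% and 0.00984% of all genes) and the edgeR likelihood ratio test (2.23% and 0.8%), run as alternatives, also called 0 in both. The HET log2 fold change was positive for 8 of 8 genes with a median of 0.28, against 0.00 over all genes, and the HOM log2 fold change for 5 of 8 with a median of 0.14. HET and HOM are compared with the same WT libraries. The 8 genes are also read from the same libraries, so the numbers of positive genes do not count separate observations. The dopamine neuron markers in the same libraries summed to medians of 3836 cpm in WT, 3941 in HET and 3414 in HOM, with overlapping ranges, and Th had medians of 639, 609 and 626 cpm. Medians of other marker lists, in WT, HET and HOM in turn, were 36.05, 75.7 and 142 cpm for cortical excitatory neurons, 8.245, 38.6 and 25.2 for hypothalamic peptide neurons (led by Pmch), 44.6, 67.5 and 80.8 for serotonergic neurons and 1290, 1015 and 901 for midbrain GABA neurons. They were 15.0, 23.25 and 35.0 cpm for cerebellar granule neurons, 24.9, 85.6 and 37.1 for choroid plexus, 139, 162 and 217 for meninges and vessels, 73.0, 95.1 and 104.5 for cortical layer 6b and claustrum, 109.5, 145 and 165 for immediate-early genes and 26160, 22260 and 20420 for oligodendrocytes. Every one of these HET and HOM ranges overlapped that of WT. Their part in the SN levels of the 8 genes was not tested.

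In AAV-Cre SN the genotypes overlapped for each gene. Nr4a2 measured 52.9, 69.4 and 87.4 cpm in HET and 46.4, 57.9 and 76.8 cpm in HOM, against 48.6, 68.3 and 82.6 cpm in WT. Pitx3 measured 3.39, 7.61 and 12.3 cpm in HET and 5.17, 7.87 and 12.9 cpm in HOM. Both genes overlapped WT, and Pitx3 in HET reached both above and below the WT range. Lmx1a measured 10.4, 13.7 and 18.6 cpm in HET and 8.44, 14.8 and 18.9 cpm in HOM. Lmx1b measured 5.17, 6.65 and 9.28 cpm in HET and 6.60, 7.55 and 8.43 cpm in HOM. The HOM range of Lmx1b was the narrower and lay within that of WT. En1 measured 31.6, 47.1 and 72.4 cpm in HET and 33.2, 45.9 and 54.2 cpm in HOM, and En2 12.6, 16.2 and 26.0 cpm and 12.8, 16.3 and 18.9 cpm. Foxa1 measured 18.6, 25.6 and 33.8 cpm in HET and 18.9, 25.3 and 30.7 cpm in HOM, and Foxa2 6.32, 8.98 and 13.2 cpm and 5.71, 8.17 and 11.1 cpm. Every one of these ranges overlapped that of WT.

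The AAV-Cre SN differences were small in the fit. In HET the log2 fold changes were 0.10 for Nr4a2, 0.03 for Pitx3, 0.0016 for Lmx1a, 0.02 for Lmx1b, 0.14 for En1, 0.14 for En2, 0.02 for Foxa1 and 0.14 for Foxa2. In HOM they were -0.07 for Nr4a2, 0.20 for Pitx3, 0.06 for Lmx1a, 0.14 for Lmx1b, -0.0098 for En1, -0.03 for En2, -0.04 for Foxa1 and 0.05 for Foxa2. The widest 95% interval in HET, for Pitx3, ran from -0.48 to 0.54. The edgeR test called 0 of 8 in HET (0% of all genes) and 0 of 8 in HOM (0%). The numbers at an unadjusted p under 0.05 were 0 and 0 (4.69% and 7.49% of all genes). DESeq2 (0.00488% and 0.0608% of all genes) and the likelihood ratio test (2.19% and 1.47%) called 0 in each. Median log2 fold changes over the 8 genes were 0.06 in HET and 0.02 in HOM. Without the SN libraries of M3676 and M3587 these medians were 0.03 and -0.07, and 5 and 2 of 8 genes were positive in place of 8 and 4. Dopamine neuron markers summed to 2465, 3548 and 5033 cpm in WT, 3569, 3906 and 6338 cpm in HET, and 2688, 3801 and 4503 cpm in HOM. Medians of other marker lists, in WT, HET and HOM in turn, were 25.3, 79.4 and 61.6 cpm for serotonergic neurons (led by Tph2), 5.52, 6.20 and 14.75 for hypothalamic peptide neurons, 1004, 1102 and 886 for midbrain GABA neurons and 70.4, 79.7 and 90.2 for cortical excitatory neurons. They were 97.9, 126 and 136 cpm for meninges and vessels, 30.5, 28.3 and 20.3 for choroid plexus and 16820, 17990 and 17260 for oligodendrocytes. The HET and HOM ranges of each overlapped that of WT, and their part in these levels was not tested.

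**Figure D3:**
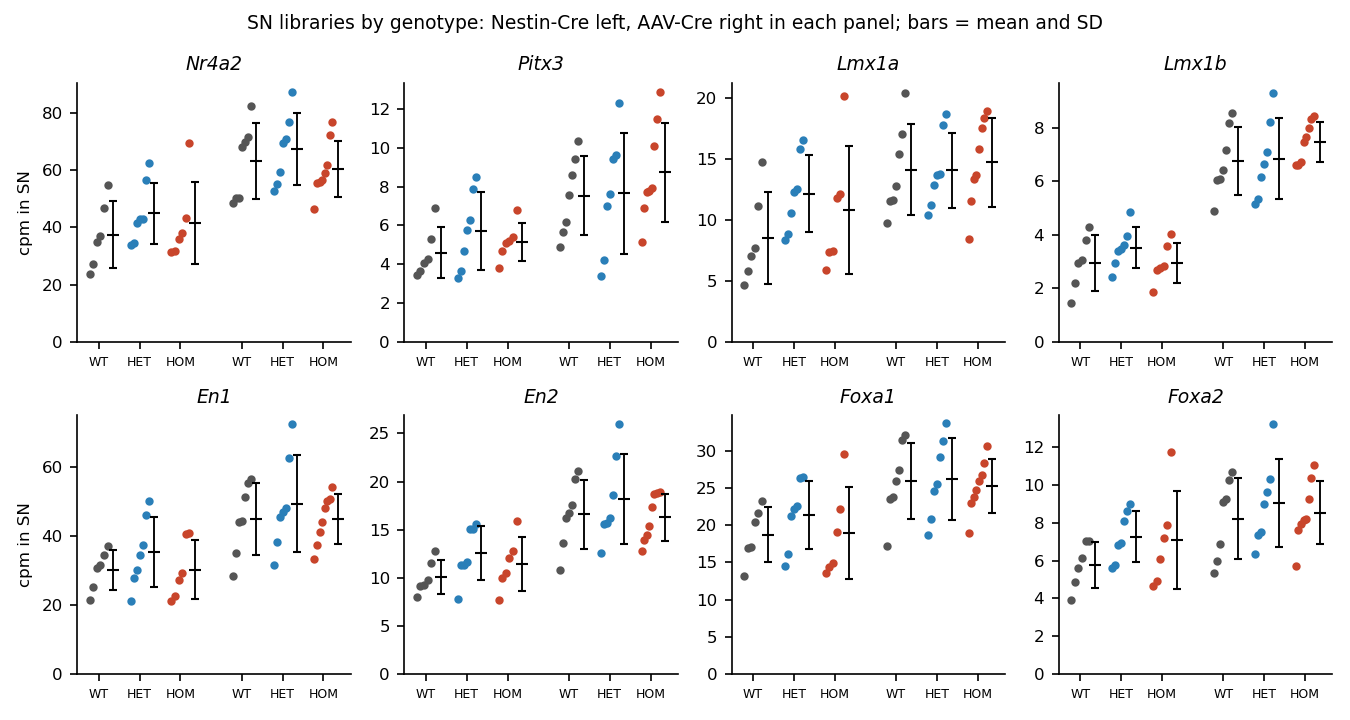
Level of each of the 8 genes in SN libraries (cpm) by genotype, Nestin-Cre left and AAV-Cre right in each panel, each point a library and the bars the mean and SD. HET and HOM overlap WT in every panel, and Lmx1b in WT lies at 1.43 to 4.29 cpm in Nestin-Cre and 4.88 to 8.55 cpm in AAV-Cre mice.

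In PFC few of the genes were high enough to test. Nr4a2 measured 23.4, 30.5 and 35.6 cpm in Nestin-Cre HET and 25, 26.6, 31.6 and 32.5 cpm in the 4 HOM libraries. In AAV-Cre PFC it measured 23.6, 29.9 and 33.9 cpm in HET and 25.6, 30.1 and 35.7 cpm in HOM. All of these lay close to WT, and every group overlapped it. The Nr4a2 log2 fold change was -0.01 in Nestin-Cre HET, -0.06 in Nestin-Cre HOM, 0.06 in AAV-Cre HET (95% interval -0.15 to 0.27) and 0.09 in AAV-Cre HOM (-0.12 to 0.29). In Nestin-Cre PFC the fit held 1 of the 8 genes, Nr4a2, and edgeR called 0 in HET (0% of all genes) and 0 in HOM (0.25%). In AAV-Cre PFC it held 2, Nr4a2 and En2, and called 0 in HET (0%) and 0 in HOM (0.0137%), with En2 at -0.16 and -0.13. The number at an unadjusted p under 0.05 was 0 in each of the 4 comparisons, as was the number called by DESeq2 and by the likelihood ratio test. Of all genes, 9.72% and 10.1% had such a p in Nestin-Cre HET and HOM, and 12.3% and 14.2% in AAV-Cre HET and HOM. In the same order DESeq2 called 0.725%, 1.62%, 0% and 7.33%, the last of only 2564 genes tested. The likelihood ratio test called 2.88%, 2.15%, 1.7% and 2.93%.

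In STR the fit held Nr4a2 and En2 in Nestin-Cre mice and Nr4a2, En2 and Lmx1a in AAV-Cre mice. Nr4a2 measured 1.12, 2.86 and 17.2 cpm in Nestin-Cre HET and 0.999, 9.91 and 68.5 cpm in HOM, against 0.774, 7.96 and 53.5 cpm in WT. All 7 HET libraries lay below the WT mean and none below every WT library. The log2 fold change was -1.87 in HET (SE 0.92, 95% interval -3.79 to 0.05, unadjusted p 0.0560, adjusted p 0.298) and -0.18 in HOM (SE 0.92). Without the 3 libraries with more than 200 cpm of cortical excitatory neuron markers these became 0.25 and 0.66. In AAV-Cre STR Nr4a2 measured 1.20, 1.68 and 4.95 cpm in HET and 1.27, 1.77 and 6.41 cpm in HOM, against 0.851, 1.36 and 3.32 cpm in WT. The 3 HOM libraries above every WT library, M3749, M3567 and M3687, had 70.3, 87.0 and 166 cpm of the cortical markers, against at most 77.2 cpm in WT. The HOM log2 fold change was 0.91 (SE 0.43, 95% interval 0.03 to 1.80, unadjusted p 0.0438, adjusted p 0.9995).

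En2 in Nestin-Cre STR measured 0.464, 0.83 and 1.47 cpm in HET and 0.517, 0.871 and 0.999 cpm in HOM, with log2 fold changes of -0.28 and -0.40. In AAV-Cre STR it measured 0.799, 1.31 and 1.68 cpm in HET and 1.32, 1.57 and 2.00 cpm in HOM, with log2 fold changes of -0.18 and 0.16. All of these groups overlapped WT. Lmx1a in AAV-Cre STR had log2 fold changes of 0.01 in HET (SE 0.95) and -0.54 in HOM (SE 1.06). In Nestin-Cre STR edgeR called 0 genes in HET (0% of all genes) and 0 in HOM (0%). In each, 0 had an unadjusted p under 0.05 (17.3% and 4.62% of all genes). In AAV-Cre STR it called 0 in HET (0%) and 0 in HOM (0%). There 0 and 1 had an unadjusted p under 0.05 (1.71% and 4.58% of all genes), the latter Nr4a2. DESeq2 called 0 in all 4 comparisons. Of all genes it called 3.61% and 0.00497% in Nestin-Cre HET and HOM, and 0% and 0.0344% in AAV-Cre HET and HOM. The likelihood ratio test called Nr4a2 in Nestin-Cre HET (adjusted p 3.52e-23), where it called 8.57% of all genes, and in AAV-Cre HOM (adjusted p 0.0158), where it called 1.19%. It called 0 of the 8 in Nestin-Cre HOM (1.91%) and in AAV-Cre HET (0.382%). The likelihood ratio test used only the dispersion trend over all genes, not each gene's own spread between mice. Its p-values therefore do not measure that spread, and Nr4a2 in Nestin-Cre WT STR ran from 0.774 to 53.5 cpm. Over the settings tried, the adjusted p of Nr4a2 ran up to 0.884 in Nestin-Cre HET and 1.0 in AAV-Cre HOM.

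Whether a genotype difference itself varied between regions was tested in a fit of all libraries of a model, where all 8 genes were in the fit, most of them through their SN libraries. The regions come from the same mice, and mouse was not a block in this fit. A gene with no count in WT and in the genotype compared in 1 of the regions had nothing to compare. This left 6 genes in the comparisons with PFC (Foxa1 and Foxa2 apart), or 5 for AAV-Cre HOM (En1 also apart). Between SN and STR it left 8 for Nestin-Cre HET and 7 (Foxa2 apart) for the others. For the AAV-Cre HET effect edgeR called 0 of these between SN and PFC (0.0194% of all genes), 0 between SN and STR (0.00648%) and 0 between STR and PFC (0%), with 1, 0 and 0 at an unadjusted p under 0.05 (14%, 3.14% and 4.82% of all genes). For the AAV-Cre HOM effect it called 0 between SN and PFC (0.188%), 0 between SN and STR (0.00648%) and 0 between STR and PFC (0%), with 1 at an unadjusted p under 0.05 in each (14.4%, 2.89% and 4.61% of all genes). For the Nestin-Cre HET effect it called 0 between SN and PFC (0.013%), 0 between SN and STR (0.0649%) and 0 between STR and PFC (0%), with 0, 1 and 1 at an unadjusted p under 0.05 (4.42%, 11.6% and 5.3% of all genes). For the Nestin-Cre HOM effect it called 0 in each (0%, 0% and 0%), with 0 between SN and PFC, 1 between SN and STR and 0 between STR and PFC at an unadjusted p under 0.05 (2.02%, 2.79% and 2.19% of all genes). The likelihood ratio test called 1 gene in 5 of these 12 comparisons: the AAV-Cre HOM effect between SN and STR (0.958% of all genes) and between STR and PFC (0.266%), the Nestin-Cre HET effect between SN and STR (3.95%) and between STR and PFC (2.02%), and the Nestin-Cre HOM effect between SN and STR (0.403%). It called 0 in the others, where it called 0.207% to 3.59% of all genes.

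The genes at an unadjusted p under 0.05 between regions were Nr4a2, Lmx1b and Lmx1a, and none of them passed after adjustment with the edgeR quasi-likelihood test. The Nestin-Cre HET effect on Nr4a2 was 2.14 log2 units higher in SN than in STR (SE 0.81, 95% interval 0.51 to 3.77, unadjusted p 0.0110, adjusted p 0.260), and ran from 1.39 to 2.14 over the settings tried. The STR libraries in that comparison include those high in cortical markers. The AAV-Cre HOM effect on Nr4a2 was lower in SN than in STR, at -0.97 (SE 0.35, unadjusted p 0.00820, adjusted p 1.0). Between STR and PFC the Nr4a2 difference was -1.85 for Nestin-Cre HET (unadjusted p 0.0238) and 0.80 for AAV-Cre HOM (unadjusted p 0.0295). The Lmx1b difference between SN and PFC in AAV-Cre HOM was 1.63 (SE 0.68, 95% interval 0.26 to 3.00, unadjusted p 0.0203, adjusted p 0.245, up to 0.413 over the settings). It rests on very few PFC counts, since Lmx1b in AAV-Cre PFC measured 0, 0.118 and 0.182 cpm in WT and 0, 0.0265 and 0.0846 cpm in HOM. The AAV-Cre HET difference in Lmx1b was 1.39 (unadjusted p 0.0487). Lmx1a in the Nestin-Cre HOM comparison of SN with STR (unadjusted p 0.0136, adjusted p 1.0, and 0.00515 with the likelihood ratio test) had 2 counts over the 6 HOM and 23 over the 6 WT STR libraries. Choroid plexus markers in these had medians of 44.1 cpm in HOM and 106 cpm in WT, and their part in this difference was not tested.

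Whether a genotype difference varied between models was tested in a fit of both models for each region. In PFC 2 of the 8 genes were in the fit, and edgeR called 0 for HET (0.678% of all genes) and 0 for HOM (3.54%). In SN all 8 were in the fit, with 0 called for HET (0%) and 0 for HOM (0%). In STR 3 were in the fit, with 0 called for HET (0.00673%) and 0 for HOM (0.0202%). The number at an unadjusted p under 0.05 was 0 in all 6 comparisons. Of all genes, 14.8% and 16.6% had such a p in PFC for HET and HOM, 14% and 3.32% in SN, and 15.5% and 6.67% in STR. The likelihood ratio test called 1 gene for HET (6.11% of all genes) and 1 for HOM (1.74%) in STR, both times Nr4a2. It called 0 in PFC (3.24% and 4.2% of all genes for HET and HOM) and 0 in SN (4.56% and 1.07%). The SN HET effect was higher in Nestin-Cre than AAV-Cre mice by 0.06 (En1) to 0.50 (Lmx1a) log2 units for the 8 genes. The STR HET effect on Nr4a2 was lower in Nestin-Cre mice, at -2.15 (SE 1.10, unadjusted p 0.0575, adjusted p 0.336). The Nestin-Cre STR libraries in that comparison include those high in cortical markers. Without them the Nestin-Cre STR HET log2 fold change of Nr4a2 was 0.25 in place of -1.87. The difference between models was not computed without them.

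The genes that these factors act on and with were followed as lists. Of 16 dopamine neuron genes, edgeR called 15 higher and 1 lower in SN than in STR in both models, against 39.7% and 35.9% of all genes in AAV-Cre and 37.8% and 38.3% in Nestin-Cre mice. The lower gene was Drd2, the dopamine autoreceptor that striatal neurons also make, at -1.50 in AAV-Cre and -2.21 in Nestin-Cre mice. Median log2 fold changes of the list were 5.04 in AAV-Cre and 4.46 in Nestin-Cre mice. The list holds the dopamine neuron markers that set SN apart above, so its numbers between regions are a description only. Against PFC 15 were higher and 0 lower in AAV-Cre mice (37.7% and 36.4% of all genes), and 14 higher and 1 lower in Nestin-Cre mice (37.6% and 41.2%), with the same numbers by DESeq2 and at an unadjusted p under 0.05. Of the 21 other regulators of dopamine neuron development, 9 of the 20 in the AAV-Cre fit were higher in SN than in STR (39.7% of all genes) and 8 lower (35.9%), and in Nestin-Cre mice 8 of 18 were higher (37.8%) and 8 lower (38.3%). Ebf3 was 5.72 and 5.25 log2 units higher in SN than in STR and Ebf2 4.48 and 3.65, while Rxrg, at -3.90 and -4.58, and Bcl11a, at -1.85 and -2.57, were lower. Sox6 differed little, at 0.32 and 0.56. Otx2 was at 2.52 in Nestin-Cre mice and at 0.17 with no call (adjusted p 0.780) in AAV-Cre mice. The AAV-Cre WT STR libraries high in choroid plexus markers, M3585 and M3588, had 28.3 and 12.8 cpm of Otx2, against at most 2.795 cpm in the other 5, and without them, which had to widen the difference, Otx2 was 2.06 log2 units higher in SN. With mouse as a block and all libraries the difference was 0.94 and was called (adjusted p 0.0515).

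Neither list held a gene called by edgeR in any of the 12 genotype comparisons. In Nestin-Cre SN 0 dopamine neuron genes in HET and 1 in HOM had an unadjusted p under 0.05 (8.99% and 4.09% of all genes), with median log2 fold changes of 0.09 and -0.17. In AAV-Cre SN the numbers were 0 in HET and 1 in HOM (4.69% and 7.49% of all genes), with medians of 0.21 and -0.01, and 16 of 16 genes were positive in HET. Without M3676 and M3587, 14 of 16 were positive with a median of 0.14. The 16 genes are read from the same libraries, so these are not 16 separate observations. Over all genes the median was 0.0021 in Nestin-Cre SN HET and 0.0032 in HOM, and 0.00034 in AAV-Cre SN HET and 0.0063 in HOM. The list includes Ddc and Slc18a2, which serotonergic neurons also make, and the part of the higher serotonergic median in HET was not tested. For the other regulators in SN, 2 and 0 had an unadjusted p under 0.05 in Nestin-Cre HET and HOM and 4 and 1 in AAV-Cre HET and HOM, with medians of 0.14, 0.07, -0.03 and -0.05. DESeq2 called 0 of either list in SN (0.00488% to 0.0608% of all genes). The likelihood ratio test called 2 dopamine neuron genes and 3 other regulators in AAV-Cre SN HET (2.19% of all genes). In the other SN comparisons it called 0 (0.8% to 2.23%). In Nestin-Cre STR HET, 6 dopamine neuron genes and 6 other regulators had an unadjusted p under 0.05, as did 17.3% of all genes. There DESeq2 called 2 and 1 (3.61% of all genes), and the likelihood ratio test 6 and 4 (8.57%). Striatal projection neuron markers in that comparison had medians of 7966 cpm in WT and 5558 in HET, and cortical excitatory neuron markers 88.2 and 39.1 cpm, and their part in it was not tested. In the other PFC and STR comparisons 0 to 4 of either list had an unadjusted p under 0.05, as did 1.71% to 14.2% of all genes. DESeq2 called 1 dopamine neuron gene in Nestin-Cre PFC HET (0.725% of all genes) and 0 in the rest of these (0% to 7.33%). The likelihood ratio test called 0 to 3 (0.382% to 2.93%).

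Across SN libraries many pairs of the 8 genes varied together. With genotype means removed, 88 relations were computed, 44 in each model: 28 pairs among the genes, and each gene with Th and with the serotonergic gene Tph2. All p-values were adjusted over these 88, and a relation was called at an adjusted p under 0.1. Among the 28 pairs, 17 were called in Nestin-Cre mice by r, all positive (r from 0.02 to 0.90, median 0.53), and 15 of them also by rho. In AAV-Cre mice 21 of 28 were called, all positive and all also by rho (r from 0.18 to 0.96, median 0.73). The lowest called r was 0.484 for the Nestin-Cre and 0.648 for the AAV-Cre libraries. Of all 100302366 pairs among 14164 genes, 14.4% and 0.987% in turn had an r at least as high. Of the 8 relations with Th, the Nestin-Cre libraries gave 4 calls and the AAV-Cre libraries 7, with Lmx1a the exception in the latter (r 0.189). The lowest called r with Th was 0.51 and 0.66 in turn, and 7.33% and 1.33% of all genes had an r with Th at least as high. With Tph2, 0 of 8 were called in either model. Without M3676 and M3587, 22 of the 28 AAV-Cre pairs were called in place of 21, with 7 of 8 relations with Th as before and 1 of 8 with Tph2 in place of 0, that of Foxa2 (r 0.483, permutation p 0.0417, adjusted p 0.0765). The share of all genes with such an r with Tph2 was not computed, so the Tph2 numbers are a description only.

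En1 and Foxa1 formed the pair with the highest r in Nestin-Cre mice. Their r was 0.896 and rho 0.895 over 19 Nestin-Cre libraries, and 0.908 and 0.897 over 22 AAV-Cre libraries. For each of these the permutation p was 1e-05, the smallest that 100000 permutations can give, with adjusted p 6.29e-05 for r and 7.33e-05 for rho. Without the 2 farthest libraries r was 0.884 and 0.844. The paralogs En1 and En2 had r 0.834 (permutation p 9e-05, adjusted 0.000417) and rho 0.777 (permutation p 0.00043, adjusted 0.0018) in Nestin-Cre mice, and r 0.961 and rho 0.947 (permutation p 1e-05 each, adjusted 6.29e-05 and 7.33e-05) in AAV-Cre mice. Without the 2 farthest, r was 0.863 and 0.934. En1 and Th in AAV-Cre mice had r 0.950 and rho 0.942 (permutation p 1e-05 each, adjusted 6.29e-05 and 7.33e-05, r 0.917 without 2). In Nestin-Cre mice En1 and Th had r 0.510 (permutation p 0.0457, adjusted 0.0821) and rho 0.542 (permutation p 0.0305, adjusted 0.0584), and r 0.700 without 2.

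Pairs with Nr4a2 and Lmx1a were computed in each model on its own, and the models were not compared by a test. Nr4a2 and Lmx1a had r 0.810 (permutation p 0.0002, adjusted 0.000838) and rho 0.761 (permutation p 0.00054, adjusted 0.0019) in Nestin-Cre mice, and r 0.665 without 2. In AAV-Cre mice they had r 0.290 (permutation p 0.21, adjusted 0.299) and rho 0.289 (permutation p 0.22, adjusted 0.322), and r 0.241 without 2. Nr4a2 and Foxa2 had r 0.955 and rho 0.971 in AAV-Cre mice (permutation p 1e-05 each, adjusted 6.29e-05 and 7.33e-05, r 0.946 without 2). In Nestin-Cre mice that pair had r 0.455 (permutation p 0.0804, adjusted 0.139) and rho 0.519 (permutation p 0.0331, adjusted 0.0619), and r 0.573 without 2. By r Lmx1a was called with no other of the 8 genes in AAV-Cre mice (r from 0.18 to 0.41). With Lmx1b it had r 0.408 (permutation p 0.0654, adjusted 0.115) and rho 0.453 (permutation p 0.0459, adjusted 0.0807), r 0.363 without 2, and r 0.50 without M3676 and M3587 (adjusted 0.0415), so that rho and the smaller set passed the threshold. Without M3676 and M3587 the AAV-Cre r was 0.882 for En1 and Foxa1, 0.964 for En1 and En2, 0.940 for En1 and Th and 0.953 for Nr4a2 and Foxa2, each still called, and 0.264 for Nr4a2 and Lmx1a.

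**Figure D4:**
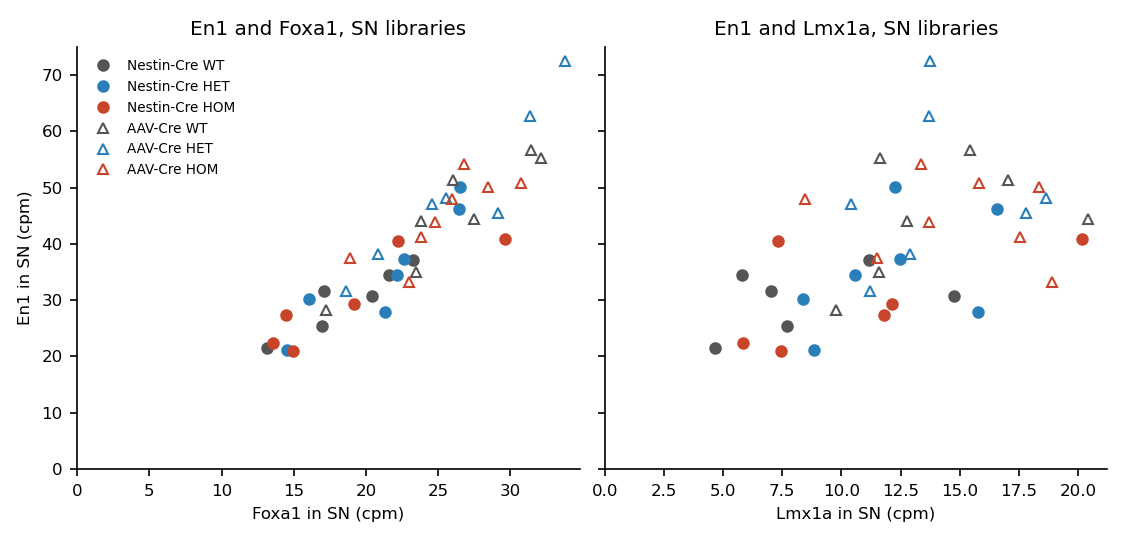
En1 against Foxa1 (left) and En1 against Lmx1a (right) in each SN library, all in cpm, with circles for Nestin-Cre and open triangles for AAV-Cre mice. En1 and Foxa1 lie along a line in both models (r 0.896 and 0.908), and En1 and Lmx1a scatter more widely.

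The genes most like each of the 8 across SN libraries were ranked by the lower of the correlations in the models, among 14164 genes. Genes like En1 were Dlk1 (0.911), Ret (0.898) and Slc10a4 (0.897), where Ret is the GDNF receptor. Genes like En2 were Slc10a4 (0.841), Elfn1 (0.839) and En1 (0.834). Genes like Foxa1 were En1 (0.896), Dlk1 (0.888) and Slc10a4 (0.847), so that Slc10a4 appeared for all 3. Foxa2 was nearest to Chrnb3 (0.804), En2 (0.793) and Cnpy1 (0.781). Nr4a2 was nearest to Ntn1 (0.885), Rtl1 (0.776) and Epb41l4a (0.767), and Lmx1a to Ebf3 (0.763), Fnbp1l (0.755) and Nynrin (0.729). None of the genes nearest to Nr4a2 or Lmx1a was among those of En1, En2 or Foxa1. Pitx3 was nearest to Tmem259 (0.805), Chchd10 (0.777) and Zfp219 (0.762), and Lmx1b, with the lowest values, to C130021I20Rik (0.653), Nccrp1 (0.639) and Lrrc75b (0.631).

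Promoter sequences are shown for En1 and Foxa1, the pair with the highest r in Nestin-Cre SN, for Foxa2 and for Nr4a2. They come from RefSeq on GRCm38.p6 and run from 250 bases before to 50 after the start of transcription. Of the 8 genes 7 had an entry, with 9 promoters in all, and En2 had none. The windows are chr1:120602237-120602536 on the plus strand for En1, chr12:57546062-57546361 on the minus strand for Foxa1, chr2:148046920-148047219 on the minus strand for Foxa2 and chr2:57123954-57124253 on the minus strand for Nr4a2. Capitals mark matches on either strand to the motifs searched: AAAGGTCA (NGFI-B response element), TGTTTAC (forkhead), TAATTA (homeodomain), TAATCC (bicoid type), CCAAT and TATAAA.
En1: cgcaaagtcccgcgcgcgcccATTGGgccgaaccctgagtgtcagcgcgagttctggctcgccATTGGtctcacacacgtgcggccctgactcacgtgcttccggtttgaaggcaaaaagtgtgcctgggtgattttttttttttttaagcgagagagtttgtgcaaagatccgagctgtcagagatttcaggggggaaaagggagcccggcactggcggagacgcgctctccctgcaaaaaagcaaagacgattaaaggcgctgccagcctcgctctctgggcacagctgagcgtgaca
Foxa1: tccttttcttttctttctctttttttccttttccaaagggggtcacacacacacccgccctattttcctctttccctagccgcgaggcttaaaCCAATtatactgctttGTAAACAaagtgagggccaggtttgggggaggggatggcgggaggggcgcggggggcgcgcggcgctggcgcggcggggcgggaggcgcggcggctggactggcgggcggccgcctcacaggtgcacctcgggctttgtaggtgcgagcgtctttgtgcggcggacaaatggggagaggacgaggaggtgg
Foxa2: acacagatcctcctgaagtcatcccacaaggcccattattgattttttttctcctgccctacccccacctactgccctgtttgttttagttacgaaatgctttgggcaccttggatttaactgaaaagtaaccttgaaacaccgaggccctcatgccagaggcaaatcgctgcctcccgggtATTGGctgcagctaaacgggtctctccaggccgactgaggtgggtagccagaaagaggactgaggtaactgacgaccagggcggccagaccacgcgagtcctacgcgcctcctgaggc
Nr4a2: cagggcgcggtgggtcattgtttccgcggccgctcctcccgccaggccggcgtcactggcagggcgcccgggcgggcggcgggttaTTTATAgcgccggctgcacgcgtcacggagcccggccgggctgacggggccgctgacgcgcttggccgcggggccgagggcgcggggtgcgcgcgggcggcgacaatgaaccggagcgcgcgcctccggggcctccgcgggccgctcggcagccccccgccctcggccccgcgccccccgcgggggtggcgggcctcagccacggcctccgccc
CCAAT was found in the promoters of En1, Lmx1b, Foxa1 and Foxa2, against 37.4% of all 32851 promoters, and TATAAA in those of Nr4a2 and Foxa2, the latter in a window not shown, against 13.6%. The forkhead motif TGTTTAC was found in Foxa1 alone of the genes with an entry, against 3.65% of all promoters. AAAGGTCA (1.51% of all promoters), TAATTA (5.29%) and TAATCC (7.06%) were found in none of the 9. A match describes the sequence and is not a sign of binding.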

How the data were processed

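RNA was prepared from dissected tissue as TruSeq stranded mRNA libraries and read single-end. Per the processing notes, the authors used bcl2fastq 2.20.0.422, aligned reads to mm10 with STAR 2.5.2b and counted reads per gene with featureCounts 1.5.1. The deposited table holds integer counts, not normalized, for 24412 genes with exon coordinates. The strand setting of the counting is not stated, so reads of the opposite strand may be included, which bears on the 9 bases Pitx3 shares with Elovl3. In the table, 6 entries have no symbol, and they were kept in every fit. All 121 libraries were used and no value column was left out.

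Each contrast was fitted on the whole table with edgeR 4.0.16 (limma 3.58.1, R 4.3.3): TMM scaling, trended dispersion, quasi-likelihood test, two-sided, a minimum of 1 cpm in 3 or more libraries of the fit, Benjamini-Hochberg adjustment over all genes of the fit, called at an adjusted p under 0.1. Genotype contrasts used each model and region on its own, region contrasts the WT libraries of a model, and differences of effects a fit of all groups of a model or region. Alternatives were DESeq2 1.42.0, the edgeR likelihood ratio test, DESeq2 size factors, no filter, other sets of libraries in the fit, an adjusted p under 0.05, mouse as a block, and leaving out M4575 or single libraries. The likelihood ratio test used the trended dispersion without each gene's own spread between mice, so its p-values do not measure that spread. Alternatives without libraries high in cortical, choroid plexus or striatal markers were chosen after seeing the values.

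Correlations used log2(TMM cpm + 0.5) with genotype means removed and 100000 permutations of mice within genotype (Python 3.11, numpy 2.4.6, pandas 2.3.3, scipy 1.17.1, figures with matplotlib 3.10.9). Counting intervals are 95%, and the floor for a group at 0 is 3 counts over the group. The text names the 8 genes, the listed and marker genes it describes, Gdnf, and for each of the 8 the 3 most like genes. The members and lists were chosen with earlier results of these data known. After the analysis, 1 planned marker list, 1 gene of the cortical excitatory neuron list and the planned relations with 1 marker gene were left out, and sums and adjusted p-values were computed again without them. The genotype fits were tested on simulated SN counts with known changes. The ranking of most like genes was tested with made rows that follow each of the 8 genes. Other steps, such as the permutation tests and the motif search, were not tested in this way.

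Pairing by the mouse numbers in the labels was checked on genes with group means removed. Libraries of the same mouse had median correlations of 0.182 to 0.295 between regions, and libraries of different mice medians from -0.0149 to -0.000788. The lowest chi-square per degree of freedom among all 7260 pairs of libraries was 3.62, so no library is a copy of another.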

Additional observations from a re-analysis of the deposited data

Results flagged for a closer look

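In 5 of 72 groups tested, a library lay far from the others of its group. Chance alone gives such a library in about 1 in 20 groups. Nr4a2 in Nestin-Cre STR HOM was 68.5 cpm in M4569, against 0.999 to 13.5 cpm in the other 5 libraries. Nr4a2 in AAV-Cre STR HET was 4.95 cpm in M3652, against 1.20 to 1.90 cpm in the other 6. Nr4a2 in Nestin-Cre SN HOM was 69.4 cpm in M4580, against 31.5 to 43.4 cpm in the other 5. En2 in Nestin-Cre STR WT was 2.85 cpm in M4394, against 0.383 to 1.01 cpm in the other 5. Lmx1a in AAV-Cre STR WT was 2.84 cpm in M3585, against 0 to 0.883 cpm in the other 6.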

How the results depend on the processing

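Of 304 recomputed counts of called genes, 15 moved, that is, became more than 1.5 times larger or smaller, or changed from or to 0. Smaller changes were not counted, such as 8 in place of 7 genes higher in SN than STR in Nestin-Cre WT mice, with mouse as a block and without the STR libraries high in cortical markers. The edgeR likelihood ratio test gave 1 call in place of 0 in Nestin-Cre STR HET and AAV-Cre STR HOM, for the difference between models in STR HET (1) and STR HOM (1), and for the AAV-Cre HOM effect between SN and STR (1) and STR and PFC (1), the Nestin-Cre HET effect between SN and STR (1) and STR and PFC (1), and the Nestin-Cre HOM effect between SN and STR (1). With all regions in 1 fit, Nestin-Cre STR HET gave 1 call in place of 0. In AAV-Cre WT mice the number lower in STR than PFC was 1 in place of 2 with DESeq2, with no filter, with mouse as a block and without the STR libraries high in choroid plexus markers. In Nestin-Cre WT mice it was 2 in place of 0 without the STR libraries high in cortical markers, and 1 of these, Lmx1b, then had no STR count left, while the other, Nr4a2, was highest in the libraries left out. The cause was not tested in any of these.

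Of 1332 recomputed log2 fold changes, 15 changed sign under alternatives other than leaving out a single library. Without M3676 and M3587, AAV-Cre SN HET gave -0.054 for Foxa1, -0.16 for Lmx1a and -0.039 for Pitx3, and HOM gave -0.038 for Foxa2 and -0.013 for Lmx1a. With all regions in 1 fit, Lmx1a in AAV-Cre SN HET was -0.0096. With DESeq2, Lmx1a in AAV-Cre STR HET was -0.087. Without M4575, Nr4a2 was 0.031 in Nestin-Cre PFC HET and 0.027 in STR HOM, and in SN HOM En1 was 0.036, Foxa1 0.057 and Lmx1b 0.071. Without the STR libraries high in cortical markers, Nr4a2 was 0.25 in Nestin-Cre STR HET and 0.66 in HOM. Without the STR libraries high in choroid plexus markers, Pitx3 between STR and PFC of AAV-Cre WT mice was 0.13. The cause of these changes was not tested, and none of them was called.

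Leaving out single libraries changed the sign of 15 of 34 results at least once and called no gene. In AAV-Cre SN HET the ranges were -0.056 to 0.092 for Foxa1, -0.086 to 0.12 for Lmx1a, -0.064 to 0.092 for Lmx1b and -0.13 to 0.16 for Pitx3. In AAV-Cre SN HOM they were -0.097 to 0.057 for En1, -0.12 to 0.035 for En2, -0.12 to 0.017 for Foxa1, -0.037 to 0.12 for Foxa2, -0.013 to 0.18 for Lmx1a and -0.12 to 0.014 for Nr4a2. In Nestin-Cre PFC HOM the range was -0.12 to 0.0029 for Nr4a2. In Nestin-Cre SN HOM the ranges were -0.13 to 0.067 for En1, -0.18 to 0.072 for Foxa1, -0.16 to 0.10 for Lmx1b and -0.081 to 0.28 for Nr4a2. The 8 genes of Nestin-Cre SN HET kept a positive sign in every one of these fits.

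Of 220 recomputed relations, 4 changed sign and none of these was called. With genotype means kept, Lmx1a with Th was -0.058 and Foxa1 with Tph2 -0.044, both in Nestin-Cre mice. Without M3676 and M3587, Pitx3 with Tph2 was 0.017 and Foxa1 with Tph2 0.061, both in AAV-Cre mice. A further 8 relations came to pass the threshold and 1 no longer did.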
